A study of Mus musculus with 8 samples.

Results

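The 10 genes described here encode proteins that neutrophils pack into their granules. They are 10 of the 19938 genes that a single-gene probe set named on the array, and each was found on exactly 1 probe set. The 4 primary granule genes are Mpo, Elane, Prtn3 and Ctsg, and the 6 later granule genes are Ltf, Camp, Ngp, Lcn2, Chil3 and Retnlg. The mice were DBA/1J males, 8 to 10 weeks old at the start, and RNA was extracted from their paws. In the group with collagen-induced arthritis (CIA), type II collagen from chicken (150 µg) was emulsified in complete Freund adjuvant and injected at the tail base, with a booster in incomplete Freund adjuvant at week 3. The adjuvant group received both adjuvants on the same schedule without collagen, so every mouse in the study carried adjuvant. The CIA+MLIF and adjuvant+MLIF groups also received nasal MLIF, a small peptide of amoebic origin named for inhibiting monocyte locomotion, weekly from before the first injection to the end. The sample labels place tissue collection 4 weeks after the booster, whereas the series' design text says before it. Each group held 8 mice and is represented by 2 arrays, 8 in all, which the labels call biological replicates without saying whether an array is 1 mouse or a pool. The p-values therefore measure the spread between these arrays.

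Neutrophils arise in the bone marrow and fill their granules in waves. Transcripts of primary (azurophil) granule proteins are made at the promyelocyte stage and are largely shut off afterwards. Transcripts of secondary and tertiary granule proteins follow in myelocytes and later precursors, and some of them, such as Lcn2 and Retnlg, are still found in mature cells. The protein product stays in the granule after its transcript has gone, so a neutrophil that has reached inflamed tissue usually holds much more Mpo protein than Mpo transcript. Neutrophils are abundant in arthritic mouse joints, and the small bones of a paw also contain marrow. In RNA from paws, fewer cells of a type, less RNA per cell and a different share of tissues in the sample cannot be told apart.

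The promoters of the primary granule genes and of a pair of later ones are shown because the division of the members into classes follows the developmental stage at which they are transcribed. The RefSeq sequences (assembly GRCm38.p6) cover the 250 bases upstream of the annotated start, read 5′ to 3′ on the gene's own strand. Mpo lies at chr11:87793534-87793783 on the plus strand, Elane at chr10:79886062-79886311 on the plus strand, Prtn3 at chr10:79879417-79879666 on the plus strand and Ctsg at chr14:56102575-56102824 on the minus strand. Ltf lies at chr9:111019042-111019291 and Ngp at chr9:110419558-110419807, both on the plus strand. Capitals mark, on either strand, the letters AGGAAGT (a core bound by PU.1 and other ETS factors), AACGG (a MYB core) and TTNNGNAA (a loose C/EBP core).
Mpo: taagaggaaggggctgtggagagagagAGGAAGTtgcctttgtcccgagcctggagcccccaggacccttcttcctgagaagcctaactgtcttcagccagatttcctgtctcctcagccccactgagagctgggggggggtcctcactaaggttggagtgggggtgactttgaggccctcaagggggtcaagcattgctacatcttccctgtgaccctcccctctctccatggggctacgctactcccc
Elane: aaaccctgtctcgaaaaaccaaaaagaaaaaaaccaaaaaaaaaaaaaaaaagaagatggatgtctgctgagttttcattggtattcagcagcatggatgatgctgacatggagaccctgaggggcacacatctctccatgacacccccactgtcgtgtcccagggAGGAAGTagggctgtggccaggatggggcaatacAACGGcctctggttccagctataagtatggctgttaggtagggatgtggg
Prtn3: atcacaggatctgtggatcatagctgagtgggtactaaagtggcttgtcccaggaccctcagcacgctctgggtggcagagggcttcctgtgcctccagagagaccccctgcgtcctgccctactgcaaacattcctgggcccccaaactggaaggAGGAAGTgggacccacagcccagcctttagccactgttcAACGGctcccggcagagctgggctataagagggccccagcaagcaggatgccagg
Ctsg: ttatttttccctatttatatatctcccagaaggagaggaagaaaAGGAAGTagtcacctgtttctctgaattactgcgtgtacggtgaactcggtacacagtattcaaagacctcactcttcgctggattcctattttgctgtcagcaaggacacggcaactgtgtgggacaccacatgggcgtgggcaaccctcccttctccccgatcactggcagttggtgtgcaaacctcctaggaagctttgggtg
Ltf: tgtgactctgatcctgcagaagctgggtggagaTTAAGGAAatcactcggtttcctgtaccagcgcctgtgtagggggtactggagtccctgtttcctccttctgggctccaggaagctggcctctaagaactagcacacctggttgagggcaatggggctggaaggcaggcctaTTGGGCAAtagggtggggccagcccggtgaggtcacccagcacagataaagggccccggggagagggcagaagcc
Ngp: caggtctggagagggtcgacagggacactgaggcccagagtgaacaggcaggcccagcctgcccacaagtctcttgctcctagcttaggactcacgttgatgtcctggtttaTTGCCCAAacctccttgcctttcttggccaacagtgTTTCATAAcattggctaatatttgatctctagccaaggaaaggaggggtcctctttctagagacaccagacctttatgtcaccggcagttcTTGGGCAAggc

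AGGAAGT was present in 4 of 4 primary granule windows and in 1 of 6 later ones, that of Chil3. It began 223 bases upstream of the start in Mpo, 84 in Elane, 94 in Prtn3 and 206 in Ctsg. Of all 32851 windows of this length in the RefSeq table, 7.7% held it. AACGG was found 50 bases upstream of Elane and 55 bases upstream of Prtn3, neighbouring genes on chromosome 10, and in no other member, against 14.5% of all windows. TTNNGNAA was in 0 of 4 primary and 5 of 6 later windows, Camp being the exception, against 36.8% of all windows. The letters were chosen after the sequences had been seen, and a match is a description of the window and not a mapped binding site.

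All 10 granule genes rose in the paws of CIA mice compared with adjuvant mice. The increases ran from 1.30 for Prtn3 to 2.70 for Retnlg on the log2 scale, or 2.47-fold to 6.50-fold in signal, and the median over the members was 1.73. Over all 28944 probe sets, 4.3% were called higher and 14.2% lower in this comparison (18.5% in either direction), and the median change was -0.25. A probe set was called when limma's Benjamini-Hochberg adjusted p over all probe sets was under 0.05. The primary granule genes rose by a median of 1.73, and the later granule genes by a median of 1.84.

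The 4 primary granule genes encode the enzymes of the earliest granule. Mpo, myeloperoxidase, makes hypochlorous acid from hydrogen peroxide. Its log2 signal was 6.99 and 6.90 on the adjuvant arrays, 7.71 and 7.65 with adjuvant+MLIF, 8.74 and 9.19 in CIA, and 7.43 and 7.42 in CIA+MLIF. CIA was highest and adjuvant lowest, and no groups overlapped; over all probe sets, 12.5% read higher in CIA than in adjuvant without overlap. Mpo rose by 2.02 (SE 0.17; limma adjusted p = 7.32e-05) in CIA against adjuvant.

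Elane encodes neutrophil elastase, a serine protease that cleaves elastin and bacterial proteins. Its signals were 6.97 and 7.19 (adjuvant), 7.62 and 7.64 (adjuvant+MLIF), 8.74 and 8.76 (CIA) and 7.40 and 7.20 (CIA+MLIF). The CIA arrays lay more than 1 log2 unit above every other array, while the lower CIA+MLIF array and the upper adjuvant array nearly touched. The increase in CIA was 1.67 (SE 0.15; limma adjusted p = 0.000103). Prtn3, proteinase 3, is the closely related protease encoded next to Elane. Its signals were 7.07 and 7.20 (adjuvant), 7.64 and 7.76 (adjuvant+MLIF), 8.26 and 8.62 (CIA) and 7.44 and 7.42 (CIA+MLIF). The groups kept the order seen for Mpo, again without overlap, and Prtn3 rose least of the 10 members, by 1.30 (SE 0.16; limma adjusted p = 0.000736).

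Ctsg encodes cathepsin G, a granule protease with chymotrypsin-like activity. Its signals were 6.07 and 6.55 (adjuvant), 7.13 and 7.14 (adjuvant+MLIF), 7.85 and 8.37 (CIA) and 6.77 and 7.00 (CIA+MLIF). The first adjuvant array lay below the median of the array's control entries, which served as a guide to background, and the groups did not overlap. Ctsg rose by 1.80 (SE 0.22; limma adjusted p = 0.000639) in CIA.

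**Figure D1:**
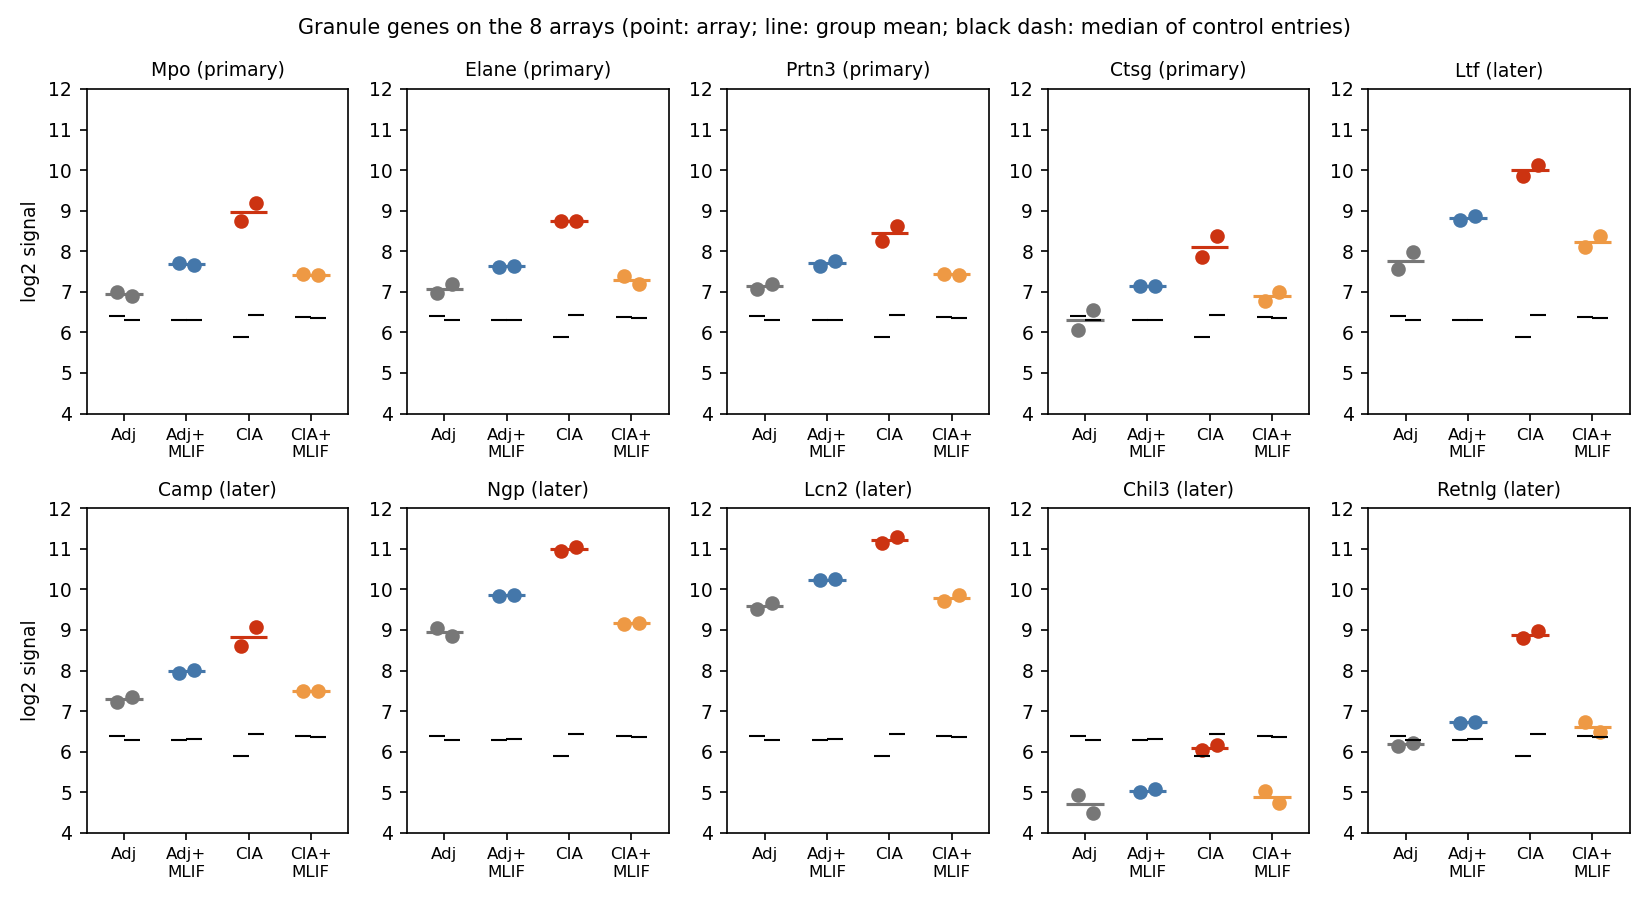
Each panel plots the log2 signal of 1 granule gene on the 8 arrays (points), with the group means (coloured lines) and the median of the array's control entries (black dashes). The CIA arrays are the highest in every panel, from 6.04 and 6.16 for Chil3 to 11.13 and 11.29 for Lcn2.

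Among the later granule genes, Ltf encodes lactoferrin, the iron-binding protein of secondary granules. Its signals were 7.56 and 7.97 (adjuvant), 8.76 and 8.86 (adjuvant+MLIF), 9.85 and 10.13 (CIA) and 8.10 and 8.37 (CIA+MLIF). The 4 groups stood apart in the same order as for Mpo, and Ltf rose by 2.23 (SE 0.19; limma adjusted p = 7.48e-05) in CIA. Camp encodes the cathelicidin antimicrobial peptide. Its signals were 7.23 and 7.34 (adjuvant), 7.95 and 8.01 (adjuvant+MLIF), 8.59 and 9.06 (CIA) and 7.49 and 7.51 (CIA+MLIF). No groups overlapped, and the increase in CIA was 1.54 (SE 0.18; limma adjusted p = 0.000435).

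Ngp encodes neutrophilic granule protein, a relative of the cathelicidins and cystatins. Its signals were 9.05 and 8.85 (adjuvant), 9.85 and 9.87 (adjuvant+MLIF), 10.94 and 11.05 (CIA) and 9.15 and 9.18 (CIA+MLIF). The arrays of each group were close together and the CIA+MLIF arrays lay just above the adjuvant ones. Ngp rose by 2.05 (SE 0.15; limma adjusted p = 2.41e-05) in CIA. Lcn2 encodes lipocalin-2, which withholds iron from bacteria by binding their siderophores, and which epithelial cells also make. Its signals were 9.51 and 9.65 (adjuvant), 10.24 and 10.25 (adjuvant+MLIF), 11.13 and 11.29 (CIA) and 9.72 and 9.86 (CIA+MLIF). The order was again that of Mpo with no overlap, and Lcn2 rose by 1.63 (SE 0.15; limma adjusted p = 0.000100).

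Chil3 encodes the chitinase-like lectin Ym1, made by neutrophil precursors and by some macrophages. Its signals were 4.92 and 4.48 (adjuvant), 5.00 and 5.08 (adjuvant+MLIF), 6.04 and 6.16 (CIA) and 5.02 and 4.72 (CIA+MLIF). The CIA arrays stood above all others, the remaining groups lay close together, and the CIA+MLIF arrays overlapped both adjuvant groups. Only the first CIA array exceeded its control median, so the change of 1.40 (SE 0.19; limma adjusted p = 0.00107) was measured near background. Chil4, the neighbouring near-copy of Chil3, stayed below the control median on all 8 arrays and was not called (0.38, SE 0.29; limma adjusted p = 0.357). How the authors' summary treats probes shared between such copies is not given in the sources used here.

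Retnlg encodes resistin-like gamma, a small secreted protein of neutrophils. Its signals were 6.15 and 6.22 (adjuvant), 6.72 and 6.73 (adjuvant+MLIF), 8.80 and 8.96 (CIA) and 6.73 and 6.50 (CIA+MLIF). Both adjuvant arrays lay below their control medians, the MLIF groups overlapped each other, and the CIA arrays lay more than 2 log2 units above all others. Its increase of 2.70 (SE 0.15; limma adjusted p = 7.57e-06) was the greatest of the 10. Retnla, the neighbouring gene and a marker of alternatively activated macrophages, fell by 2.003 (SE 0.24; limma adjusted p = 0.000493) in the same comparison.

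With MLIF, all 10 granule genes fell in collagen-injected mice. Over all probe sets, 3.25% were called lower and 11.5% higher in CIA+MLIF against CIA (14.7% in either direction), and the median change was 0.24. The primary granule genes changed by -1.54 (Mpo, SE 0.17), -1.45 (Elane, SE 0.15), -1.01 (Prtn3, SE 0.16) and -1.22 (Ctsg, SE 0.22), with limma adjusted p from 0.000394 to 0.00678. These are 2.01-fold to 2.91-fold lower signals. The later granule genes changed by -1.76 (Ltf), -1.33 (Camp), -1.83 (Ngp), -1.42 (Lcn2), -1.23 (Chil3) and -2.27 (Retnlg), with SE between 0.15 and 0.19 and limma adjusted p from 3.86e-05 to 0.00302. Retnlg, at 4.83-fold lower, showed the largest decrease among the members, and no member's CIA+MLIF arrays overlapped its CIA arrays (10.9% of all probe sets were lower without overlap). Under array weights 7 of 10 were called, where 0.774% of all probe sets were called lower; Prtn3 (adjusted p = 0.0887), Ctsg (0.0954) and Chil3 (0.0953) were not. Without the first CIA+MLIF array 9 were called, where 1.11% of all were called lower, and Ctsg was not (adjusted p = 0.0780). This comparison and the preceding one share the CIA arrays, so a high reading on those arrays moves both.

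The first CIA array had a lower overall signal than the rest, with a median over all entries of 6.50 against 6.92 to 6.96. Each member also read lower on that array than on the second CIA array. Both CIA arrays still lay above both adjuvant arrays for all 10 members, as for 12.5% of all probe sets. The member changes in CIA against adjuvant stayed between 1.13 (Prtn3) and 2.92 (Retnlg) over every alternative run that tested them. Quantile normalization split all calls of that comparison into 3868 higher and 4223 lower, against 1245 and 4108 on the deposited values, and all 10 members were called higher in both.

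The arrays of adjuvant mice given MLIF lay above those of adjuvant mice without it for 10 of 10 members. Over all probe sets, 31.7% showed this separation in the higher direction, and 0% were called at an adjusted p under 0.05. The differences were 0.74 (Mpo), 0.56 (Elane), 0.56 (Prtn3), 0.82 (Ctsg), 1.05 (Ltf), 0.69 (Camp), 0.91 (Ngp), 0.66 (Lcn2), 0.34 (Chil3) and 0.54 (Retnlg). The limma adjusted p-values were at least 0.228, so no member passed, while 9 of 10, all but Chil3, had an unadjusted p under 0.05, as did 1107 of all 28944 probe sets. Ltf, at 2.07-fold, had the greatest difference, and the median over the members was 0.68 against 0.03 over all probe sets.

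The number of members called in adjuvant mice changed with the scaling, the variance model and the arrays fitted. With limma fitted to the 4 adjuvant arrays alone, 7 of 10 members were called higher, against 0.269% of all probe sets. Quantile normalization gave 6 (0.0795% of all), centring each array on its median gave 4 (0.0726%) and array weights gave 9 (1.49%). Leaving out either CIA array gave 6 (0.149%), namely Mpo, Prtn3, Ltf, Camp, Ngp and Lcn2. The adjuvant+MLIF arrays were the most alike pair in the study, with a correlation of 0.999 and an SD of their differences of 0.0936, against 0.207 to 0.324 in the other groups. With those arrays averaged and counted as 1, 0 members were called.

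The changes with MLIF thus had opposite signs in the adjuvant and the collagen setting, although none passed in the adjuvant setting. The interaction tests whether these changes differ, and not whether their signs are opposite. It rests on the same CIA arrays as CIA against adjuvant and CIA+MLIF against CIA. The interaction of collagen and MLIF was called lower for all 10 members, while 1.62% of all probe sets were called lower and 5.62% higher (7.24% in either direction). It was greatest for Retnlg (-2.81, SE 0.21; limma adjusted p = 0.000121), Ltf (-2.81, SE 0.27; adjusted p = 0.000483) and Ngp (-2.74, SE 0.21; adjusted p = 0.000112). It was -1.57 for Prtn3 (SE 0.23; adjusted p = 0.00393). For Chil3 it was also -1.57 (SE 0.27; adjusted p = 0.00733), measured near background. For each member, the decrease with MLIF in collagen-injected mice (1.01 to 2.27 in size) exceeded the difference with MLIF in adjuvant mice (0.34 to 1.05).

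**Figure D2:**
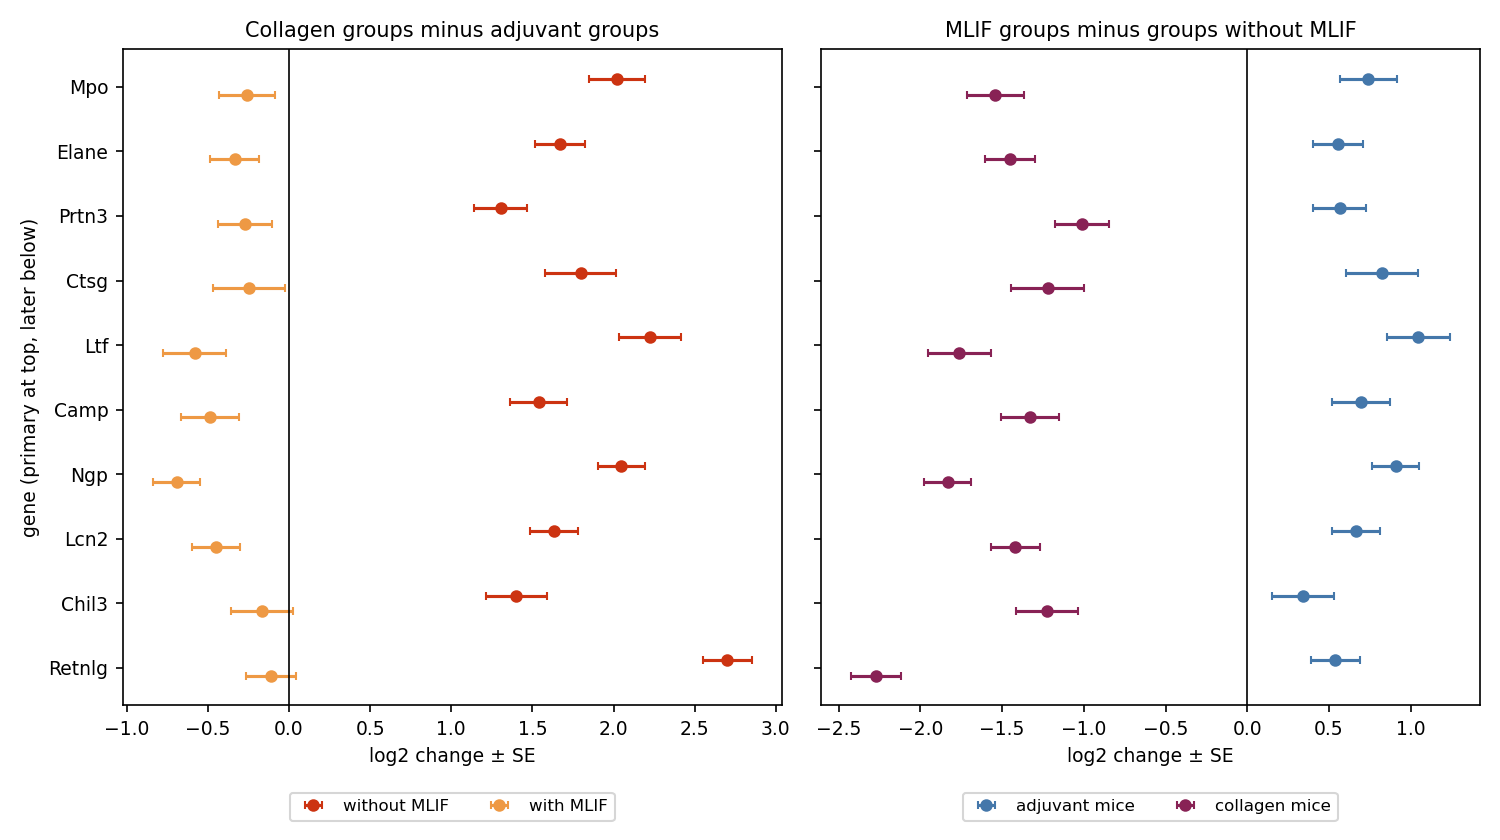
Points are log2 changes of the 10 granule genes and bars their limma SE, collagen against adjuvant without and with MLIF (left) and MLIF against no MLIF in adjuvant and collagen mice (right). Without MLIF the collagen effect runs from 1.30 to 2.70, and with MLIF from -0.69 to -0.11.

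In mice given MLIF, collagen was not accompanied by higher granule transcripts. The CIA+MLIF minus adjuvant+MLIF differences ran from -0.69 (Ngp) to -0.11 (Retnlg), with a median of -0.27 over the primary and -0.47 over the later genes. No member was called, while 0.729% of all probe sets were (0.712% higher and 0.0173% lower), and 4 of 10 (Ltf, Camp, Ngp and Lcn2) had an unadjusted p under 0.05, as did 1361 of all 28944 probe sets. The smallest limma adjusted p was 0.120, for Ngp. The arrays did not overlap for 8 of 10 members, all lower in CIA+MLIF, where 32.2% of all probe sets were lower without overlap. Under array weights Camp, Ngp and Lcn2 were called lower, as were 0.636% of all probe sets. In the fit to these groups alone Ngp was, as were 0.121% of all.

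Compared with adjuvant mice, the CIA+MLIF arrays read slightly higher for every member. The differences ran from 0.17 (Chil3) to 0.57 (Ctsg), with 0.48 for Mpo, 0.47 for Ltf and 0.43 for Retnlg. No member was called, against 0.833% of all probe sets (0.688% higher and 0.145% lower), although 4 of 10 (Mpo, Ctsg, Ltf and Retnlg) had an unadjusted p under 0.05, as did 974 of all 28944 probe sets. The arrays did not overlap for 9 of 10 members, all but Chil3, against 16.4% of all probe sets in that direction. With either CIA array left out in turn, Mpo was called higher, as were 290 of all probe sets (1%).

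The 10 members shared 1 order of group means, from high to low CIA, adjuvant+MLIF, CIA+MLIF and adjuvant. Of all probe sets, 1098 (3.79%) had that order. For 8 of 10 members, all but Chil3 and Retnlg, neighbouring groups in the order did not overlap, as for 77 probe sets (0.266%) overall. The order was noticed in the members and is given as a description. CIA differed from adjuvant and from CIA+MLIF by the test, the difference between CIA and adjuvant+MLIF was not fitted, and no difference among the other 3 groups passed.

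Primary and later granule genes were then compared by the mean log2 signal of each class on each array. The primary class averaged 6.87 in adjuvant, 7.54 in adjuvant+MLIF, 8.56 in CIA and 7.26 in CIA+MLIF, and the later class averaged 7.41, 8.11, 9.34 and 7.70. Both classes were highest in CIA and lowest in adjuvant. Levels of different probe sets are not comparable, so only the movement of the difference between groups is informative.

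The later minus primary difference was 0.63 and 0.46 on the adjuvant arrays, 0.56 and 0.59 with adjuvant+MLIF, 0.83 and 0.71 in CIA, and 0.44 and 0.43 in CIA+MLIF. The CIA arrays had the largest differences and the CIA+MLIF arrays the smallest, with a pooled SD between replicate arrays of 0.073. The group mean was 0.77 ± 0.084 in CIA and 0.54 ± 0.12 in adjuvant (SD, n = 2), and the difference between them was not tested. The separation of the CIA arrays rested on Retnlg. Without it, the difference was 0.86 ± 0.077 in CIA, 0.79 ± 0.13 in adjuvant, 0.85 ± 0.023 in adjuvant+MLIF and 0.65 ± 0.023 in CIA+MLIF (SD, n = 2), and the CIA arrays overlapped those of both adjuvant groups. The CIA+MLIF arrays stayed the lowest. By medians, the later minus primary change in CIA against adjuvant was 0.11, and it became -0.10 without Retnlg and -0.05 without the second adjuvant array.

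**Figure D3:**
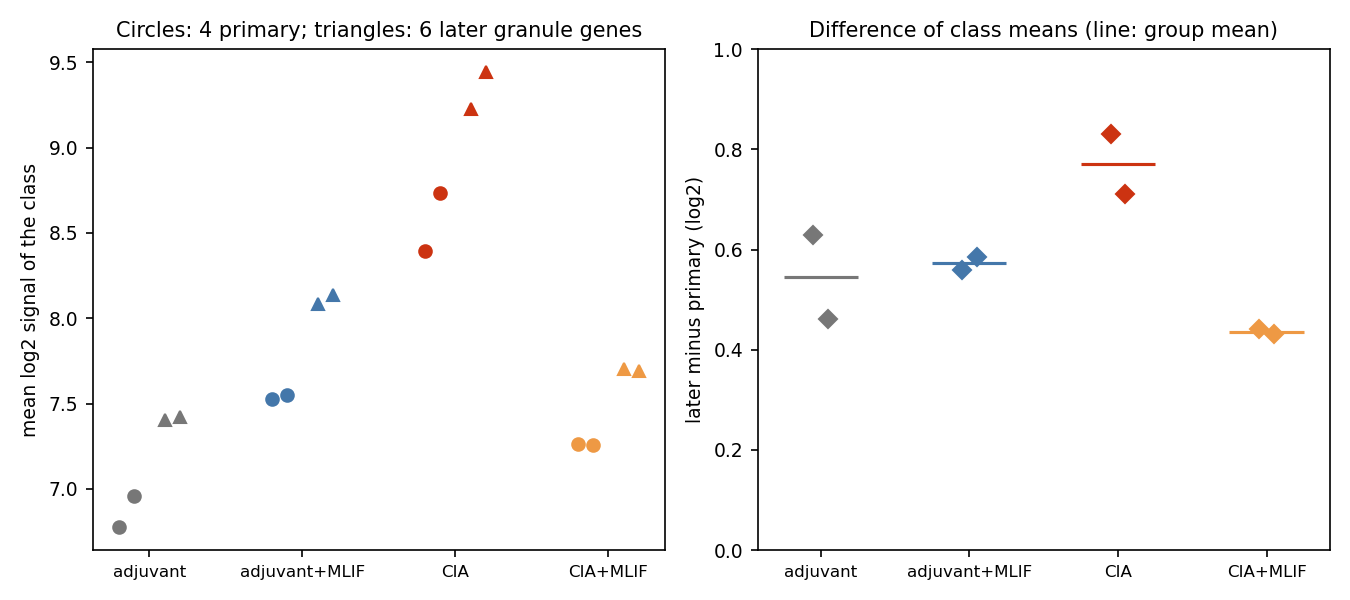
Left, the mean log2 signal of the 4 primary (circles) and 6 later (triangles) granule genes on each array; right, later minus primary on each array (diamonds), with group means as lines. Both classes are highest in CIA, and the difference is largest there (0.83 and 0.71) and smallest in CIA+MLIF (0.44 and 0.43).

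Other genes of the granule pathway were read from lists of textbook members. Over all probe sets, 4.3% were called higher and 14.2% lower in CIA against adjuvant. In CIA+MLIF against CIA, these shares were 11.5% and 3.25%. For this list and those below, shares and counts are from the deposited values and depend on the scaling. With quantile normalization, 3868 of all 28944 probe sets were called higher and 4223 lower in CIA against adjuvant. In CIA+MLIF against CIA, 3540 were then higher and 3529 lower. List counts were not made under that scaling, so small excesses over the shares are not read as results. Of 7 other primary granule and granule processing genes, 3 rose and 0 fell in CIA against adjuvant. Ms4a3, a membrane protein of granulocyte-monocyte precursors, rose by 1.32 (SE 0.21; limma adjusted p = 0.00288), measured against background, since it exceeded the control median on 3 of 8 arrays and on none of the adjuvant or CIA+MLIF arrays. Cd63, a membrane protein of primary granules, rose by 0.85, and Srgn, the proteoglycan that packs granule proteases, rose by 0.52. Ctsc, which activates the granule serine proteases by trimming them, was not called (0.15, SE 0.22; limma adjusted p = 0.638), and Prss57 and Bpi stayed below the control median on all 8 arrays. In CIA+MLIF against CIA, the same 3 fell, by 1.32 for Ms4a3, 1.11 for Cd63 and 0.80 for Srgn.

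Of 15 measured other later granule genes, 9 rose and 0 fell in CIA, and 8 fell and 0 rose in CIA+MLIF against CIA. Mmp9, gelatinase B of tertiary granules, had signals of 8.51 and 8.69 (adjuvant), 8.92 and 8.92 (adjuvant+MLIF), 11.21 and 11.21 (CIA) and 8.55 and 8.57 (CIA+MLIF). It rose by 2.61 (SE 0.14; limma adjusted p = 6.09e-06) and then fell by 2.65 (SE 0.14; limma adjusted p = 1.32e-05), and the CIA+MLIF arrays lay within the adjuvant range. Mmp8, neutrophil collagenase, rose by 2.15 and fell by 2.06, but its adjuvant and CIA+MLIF arrays lay below their control medians, so these sizes were measured against background. Pglyrp1, which binds bacterial peptidoglycan, rose by 1.96 and fell by 1.52. Of 4 measured inhibitors of granule proteases, 1 rose: Slpi, the inhibitor of elastase and cathepsin G, by 1.40 (SE 0.21; limma adjusted p = 0.00169), and it fell by 1.53 with MLIF.

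Of 11 regulators of granulocyte development, 2 rose in CIA, where 4.3% of all probe sets were called higher: Csf3r, the receptor for granulocyte colony-stimulating factor, by 1.56 (SE 0.19; limma adjusted p = 0.000578), and Runx1 by 0.70 (SE 0.14; limma adjusted p = 0.0102). Cebpe, the factor that drives secondary granule genes, was not called (0.30, SE 0.16; limma adjusted p = 0.209), nor was Gfi1 (-0.28, SE 0.21; limma adjusted p = 0.357). In CIA+MLIF against CIA, 3 of 11 fell, where 3.25% of all probe sets were called lower, Csf3r by 1.54, Myb by 0.72 and Runx1 by 0.59. The lists share genes: Csf3r is also counted among the mature neutrophil markers below, and Myb among the marrow progenitor genes. The median change of the list in CIA was 0.14, against 1.73 for the members and -0.25 over all probe sets.

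Markers of mature neutrophils moved with the granule genes. Of 10 measured, 9 rose and 1 fell in CIA against adjuvant, and 9 fell and 1 rose in CIA+MLIF against CIA. Cxcr2, the chemokine receptor by which mature neutrophils leave the marrow, rose by 2.32 (SE 0.14; limma adjusted p = 9.01e-06) and fell by 2.13. S100a8, a subunit of calprotectin, rose by 2.39 and fell by 2.16, and Clec4d, a lectin receptor, rose by 1.90 and fell by 2.17. The member that went the other way was G0s2, an inhibitor of fat breakdown that adipose tissue also expresses. It fell by 0.80 in CIA and rose by 0.88 with MLIF. The mean level of the list, relative to each array's median, was -0.20 to -0.01 in adjuvant, 0.24 to 0.26 in adjuvant+MLIF, 1.64 to 1.66 in CIA and -0.09 to 0.01 in CIA+MLIF, so the CIA+MLIF and adjuvant arrays overlapped. Cxcr2 and Clec4d exceeded the control median on 4 of 8 arrays.

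Markers of other marrow cells differed between lists. Of 5 marrow progenitor genes, 1 rose (Sox4) and 1 fell (Kit) in CIA against adjuvant. Over all probe sets, 4.3% were called higher and 14.2% lower in this comparison. Of 10 measured erythroid precursor genes, 3 rose and 1 fell. Slc4a1, the red cell anion exchanger, rose by 1.20 (SE 0.18; limma adjusted p = 0.00167) and fell by 1.37 with MLIF, while Tfrc, the transferrin receptor, fell by 1.19 in CIA. Klf1, Epb42 and Rhag stayed below the control median on all 8 arrays, although Rhag was among the 3 that rose. Of 9 measured B cell precursor genes, 0 rose and 2 fell, and Rag2 and Dntt were below the control median throughout. The B cell precursor list averaged -0.36 to -0.32 relative to the array median in adjuvant, -0.21 to -0.16 in adjuvant+MLIF, -0.30 to -0.25 in CIA and -0.49 to -0.45 in CIA+MLIF. Of 5 measured megakaryocyte and platelet genes, 1 rose in CIA and fell with MLIF: Ppbp, by 2.33 and 1.55. That list averaged 0.37 to 0.48 in adjuvant, 0.84 to 0.86 in adjuvant+MLIF, 1.16 to 1.39 in CIA and 0.66 to 0.76 in CIA+MLIF. Ppbp, and the list average that includes it, thus had the members' order of groups without overlap. Itga2b and Gp9 had that order of means with overlapping arrays. Pf4 did not, with means of 8.01 (adjuvant), 8.49 (adjuvant+MLIF), 7.92 (CIA) and 8.35 (CIA+MLIF). Treml1 did not either, being highest in adjuvant+MLIF, at 7.64 against 7.54 in CIA. How much of the members' signal came from marrow was not tested.

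Other tissues of the paw also moved with the groups. The epidermis list stood at -1.08 to -1.03 relative to the array median in adjuvant, much the same in adjuvant+MLIF, 3.50 to 3.54 in CIA and 2.42 to 2.56 in CIA+MLIF. Of its 10 genes, 9 rose in CIA against adjuvant, and 6 fell and 0 rose in CIA+MLIF against CIA. Lor, Krtdap and Dsc3 exceeded the control median on 4 of 8 arrays, none of them adjuvant or adjuvant+MLIF. Their rise was thus measured against background. Krt1 was 5.56 and 6.05 in adjuvant, below the control medians, and 12.83 and 13.24 in CIA. Trp63 and Sbsn exceeded the control median on all 8 arrays. In CIA+MLIF against adjuvant+MLIF, 8 epidermis genes were called higher, as were 0.712% of all probe sets and no granule gene. Lcn2, which skin epithelium can make, was 9.72 and 9.86 in CIA+MLIF, 9.51 and 9.65 in adjuvant, and 11.13 and 11.29 in CIA. The skeletal muscle list was 4.31 to 4.45 in CIA against 5.31 to 5.61 in the other 3 groups, and 10 of 10 of its genes fell in CIA. Joint tissue genes (cartilage, synovium and bone) stood at 3.94 to 4.15 in CIA and 3.35 to 3.61 in the other 3 groups, and 3 of 8 rose in CIA and fell with MLIF, Col1a1, Ibsp and Pdpn. The cell cycle list stood at 0.51 to 0.53 in CIA, -0.44 to -0.43 in adjuvant, -0.26 to -0.25 in adjuvant+MLIF and -0.57 to -0.42 in CIA+MLIF. Of its 7 measured genes, 5 rose in CIA and 5 fell in CIA+MLIF against CIA. The part of these lists in the members' changes was not tested.

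Among other white cells, Prg2, the major basic protein of eosinophil granules, had the members' order of groups. Its signals were 7.27 and 7.40 (adjuvant), 8.71 and 8.79 (adjuvant+MLIF), 9.55 and 10.06 (CIA) and 7.74 and 7.52 (CIA+MLIF). The groups did not overlap, and Prg2 rose by 2.47 (SE 0.19; limma adjusted p = 4.13e-05) in CIA. It was also lower in CIA+MLIF than in adjuvant+MLIF (-1.12, SE 0.19; limma adjusted p = 0.0369). Of 6 measured eosinophil genes 2 rose in CIA, Prg2 and Epx, and of 14 macrophage genes 2 rose and 2 fell. Epx lacked the members' order, with means of 5.995 (adjuvant), 6.63 (adjuvant+MLIF), 7.26 (CIA) and 5.86 (CIA+MLIF). Prg3 had that order of means with overlapping arrays, and Siglecf, Ccr3 and Il5ra lacked it. The shares over all probe sets were 4.3% higher and 14.2% lower. The macrophage list averaged 1.85 to 1.98 in adjuvant and 1.95 to 1.97 in CIA, so its level overlapped between those groups.

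**Figure D4:**
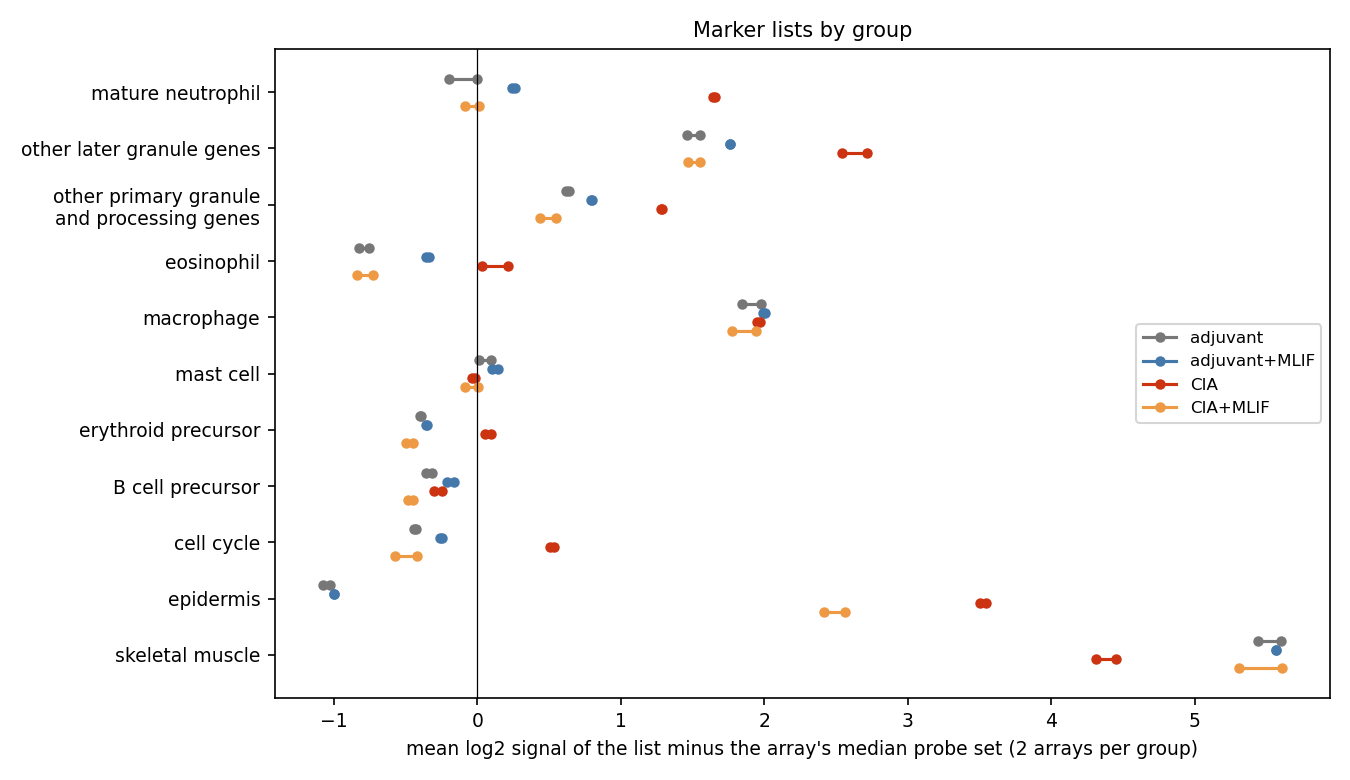
For each marker list, points give the mean log2 signal of its genes minus the array's median probe set on the 2 arrays of each group, joined by a line. Mature neutrophil genes in CIA+MLIF (-0.09 to 0.01) overlap those of adjuvant (-0.20 to -0.01), whereas epidermis genes (2.42 to 2.56) lie far above theirs (-1.08 to -1.03).

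The non-member genes whose profile over the 8 arrays was most like that of each class were found by the root mean square difference of centred log2 values. For the primary class these were C1qtnf6 (0.115), Slc39a14 (0.152), Gja1 (0.170), Prss8 (0.173) and Hdc (0.180). For the later class they were Ctla2a (0.130), Pglyrp1 (0.135), C1qtnf6 (0.138), Hmox1 (0.155) and Slc37a2 (0.159), of which Pglyrp1 is itself a later granule gene from the lists. C1qtnf6 was close to both classes, with 7.07 and 7.19 (adjuvant), 7.59 and 7.50 (adjuvant+MLIF), 8.64 and 8.85 (CIA) and 7.37 and 7.26 (CIA+MLIF). These values show the same order of groups as Mpo and Ltf, without overlap, which largely follows from ranking genes by likeness to the members.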

How the data were processed

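Paw RNA (300 ng) was hybridised to Affymetrix Mouse Gene 1.0 ST arrays, per the labels. The authors deposited 1 log2 signal per probe set and array; the scale was read from the values, with software, background correction and normalization not given in the sources used here. Of 35557 entries, 6613 without annotation were taken as controls, which left 28944 (21789 with 1 gene symbol, 1621 with several, 5534 with none, named by GEO's platform annotation). Per-sample columns left unused numbered 0. Arrays give no read depth; their number limits precision (median SE 0.18).

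The main analysis fitted 4 group means to all 8 arrays with limma 3.58.1 in R 4.3.3 (4 residual degrees of freedom), with Benjamini-Hochberg adjustment over all probe sets. In a test on simulated data for CIA against adjuvant (28944 probe sets), 2, 33, 50 and 50 of 50 changed sets were recovered at log2 changes of 0.5, 1, 2 and 3, with 15 false calls. Alternatives changed the normalization, the filter on low signals, the threshold, the variance model, the arrays used and the replicate block. Replicate numbers were not used to pair arrays in the main fit. The correlation of replicate differences was 0.39 between adjuvant and CIA+MLIF, and -0.11 to 0.0049 between the other groups. Whether arrays of the same number shared processing was not tested.

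Each member was read on its only single-gene probe set. All 10 members were described; from each list, up to 3 genes with the smallest adjusted p in a comparison were named, plus Prss57, Ctsc, Cebpe, Gfi1, Chil4, Retnla and Slpi. G0s2, Bpi, Treml1, Trp63, Sbsn, Siglecf, Ccr3, Il5ra and the precursor genes below background were chosen after their values were seen. Likeness was ranked over non-member genes, 5 per class. Members and lists were chosen with earlier results of these data known. Protein sequences were not used here.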

Additional observations from a re-analysis of the deposited data

Results flagged for a closer look

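The effect of MLIF differed between collagen-injected and adjuvant mice for all 10 granule genes, by limma's test of the interaction over all 28944 probe sets, of which 1.62% were called lower. The log2 differences were -2.28 for Mpo, -2.00 for Elane, -1.57 for Prtn3, -2.04 for Ctsg, -2.81 for Ltf, -2.02 for Camp, -2.74 for Ngp, -2.08 for Lcn2, -1.57 for Chil3 and -2.81 for Retnlg. The interaction shares its CIA arrays with CIA against adjuvant and CIA+MLIF against CIA, and no member passed for MLIF in adjuvant mice. Groups of 2 arrays were not examined for single outlying values of a gene.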

How the results depend on the processing

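All 10 members kept the direction of every change that passed in CIA against adjuvant, in CIA+MLIF against CIA and in the interaction, under every alternative run; the filter on mean signal left 9 because Chil3 fell below it. With the replicate number as a block, the counts of members called were 10, 10 and 10 in these comparisons and 0 in the other 3. The block thus changed no call. In that fit, 18%, 14% and 6.99% of all probe sets were called in these comparisons, in either direction. Counts of members called in adjuvant+MLIF against adjuvant rose from 0 to 6 with quantile normalization, 4 with centred arrays, 9 with array weights and 7 with only the groups compared, and ran from 0 to 6 with single arrays left out. In CIA+MLIF against adjuvant+MLIF, 1 member was called lower with quantile normalization, as were 58 of all 28944 probe sets. Centred arrays gave 1 member (33 of all lower) and a trended and robust variance 1 (13 of all). The filter on mean signal gave 1 member, with 18 of 19296 probe sets called lower. Array weights gave 3 members (0.636% of all lower) and only the groups compared gave 1 (0.121%). Ngp was the member called in each of these runs, joined by Camp and Lcn2 under array weights. Its change lay between -0.71 and -0.65 over the alternative runs, including those with single arrays left out. In CIA+MLIF against adjuvant, leaving out single arrays gave 0 to 1. The later minus primary median difference in CIA against adjuvant was 0.011 with quantile normalization, -0.10 with Retnlg left out (an alternative chosen after seeing the data), and -0.052 to 0.26 with single arrays left out. In CIA+MLIF against CIA it was -0.083 without Retnlg and -0.34 to -0.17 with single arrays left out, and in CIA+MLIF against adjuvant -0.17 to 0.0027 with single arrays left out. For the interaction it was -0.27 with quantile normalization, -0.057 without Retnlg and -0.45 to -0.22 with single arrays left out. The causes of these shifts were not tested. The count of all probe sets called in CIA against adjuvant was 5353 and ran from 1987 with array weights to 17706 without the second CIA array. Chil3 was close to background, and Retnlg and Ctsg were near it in adjuvant, which limits their fold changes.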
